A study of Homo sapiens with 9 samples.

Results

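The messenger RNAs of 10 genes were followed through every sample: the transcription factors MYC and MYCN, their partner MAX and the competing partner MXD1, the D-type cyclins CCND1, CCND2 and CCND3, the kinases CDK4 and CDK6 that these cyclins switch on, and the kinase inhibitor CDKN2C. Members were found by gene symbol, and they are 10 of the 25680 gene symbols in the count tables. Where a symbol had several RefSeq transcript rows, the row with the highest total count stood for the gene. All 10 passed the filter on low counts, although MYCN with 64 counts and CCND1 with 106 counts over all 9 samples lay close to the limit of detection.

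MYC binds DNA as a pair with MAX, most strongly at the E-box sequence CACGTG, and promotes growth and division in blood progenitors and leukaemia cells. MXD1 pairs with MAX in place of MYC, recruits repressors to the same sequence and is known for its rise during myeloid maturation. The D-type cyclins bind CDK4 or CDK6, and these kinases phosphorylate the RB protein, which then releases E2F factors and lets the cell enter S phase, while CDKN2C (the p18 protein) binds CDK4 and CDK6 and blocks them.

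The cells were SKNO-1, a human acute myeloid leukaemia line with the AML1-ETO fusion, which the study's methods describe as cultured with GM-CSF. There were 3 groups of 3 samples, and all carried the fusion: EV, the control, and SH2 and SH3, which received different short hairpin RNAs against ASXL2. The labels do not spell out EV, while the study speaks of a control hairpin, and the extraction text attached to the samples describes sorted bone marrow cells although the source is given as the cell line. Each group holds samples numbered 1, 13 and 25. What the numbers stand for is not stated, so samples are written here by group and number (EV no. 13) and the numbers are compared with each other only as labels. The study describes the replicates as biological, the labels name no separate cultures, and p-values measure the spread between these samples.

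Depth was 27714431 to 35406063 counts per sample with 1 transcript row per gene. Levels are given in CPM (counts scaled to a library of fixed size with edgeR's TMM factors). Without those factors, 3 counts corresponded to 0.0847 to 0.108 CPM. That floor covers counting error only. Of the markers of the line, RUNX1T1 (111 to 138 CPM), KIT, CD33 and MPO were present in every sample, while CD34 lay at 0.0680 to 0.309 CPM. The summed T cell markers reached 0.173 CPM at most, the fibroblast or epithelial markers 0.138 CPM and the B cell markers 3.34 CPM, the last almost entirely CD79A, with MS4A1, CD3E and COL1A2 at 0 in every sample. SH3 no. 1 stood apart: on the first principal component, with 52.9% of the variance, it lay at -58.6, against -24.9 for EV no. 1, -21.2 for SH2 no. 1 and 4.84 to 25.0 for the other samples. Results that rest on it are given with and without it.

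The E-box is the sequence to which MYC with MAX and MXD1 with MAX bind, so promoter stretches of 4 members are shown, with CACGTG in capitals. RefSeq promoter windows (GRCh38.p14, 250 bases before to 50 after a start) were at hand for 7 of the 10 genes, in 13 windows, and not for MYC, CCND1 and CCND2. The 100 bases printed run from 250 to 151 bases before the start, 5′ to 3′ on the gene's strand. They lie at chr12:57752461-57752560 (minus strand) for CDK4, chr1:50960495-50960594 (plus strand) for the first CDKN2C start, chr7:92836724-92836823 (minus strand) for the first CDK6 start and chr2:69914859-69914958 (plus strand) for MXD1.
CDK4: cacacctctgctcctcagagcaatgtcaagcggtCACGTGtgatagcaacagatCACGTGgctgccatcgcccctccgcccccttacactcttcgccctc
CDKN2C: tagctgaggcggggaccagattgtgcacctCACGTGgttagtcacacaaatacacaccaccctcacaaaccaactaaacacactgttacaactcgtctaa
CDK6: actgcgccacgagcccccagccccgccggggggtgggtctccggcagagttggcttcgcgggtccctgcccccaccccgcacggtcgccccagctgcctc
MXD1: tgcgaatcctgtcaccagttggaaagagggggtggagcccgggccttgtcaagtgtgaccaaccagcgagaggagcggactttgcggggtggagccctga
The CDK4 window held 3 E-boxes, which began at -216, -196 and -101 bases from the start; the first and the second are in the printed stretch. The search covered CACGTG, which reads the same on both strands, in all 300 bases of a window. Of 35116 RefSeq windows of this length, 7.26% held at least 1 E-box and 33 windows (0.0940%) held 3 or more. CDKN2C held an E-box at -220 in its first window and at -69 in another, and CDK6 held one 30 bases after its first start. The windows of MYCN, MAX, MXD1 and CCND3 held none. The RUNX letters TGTGGT, searched on both strands with their complement ACCACA, were in 13.1% of all windows and in none of the 13 windows of these genes. These are matches of letters in short windows, and no binding was measured here.

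Levels differed widely between the genes, as shown by the plot of levels in all samples. Values per kilobase used the length of the GENCODE canonical transcript, which may differ from that of the RefSeq row counted. The SD over samples does not cover such a difference, and ratios per kilobase below carry it too. Per kilobase of transcript, CDK4 (189 ± 23.8 CPM per kb, SD over 9 samples) and MYC (188 ± 32.7 CPM per kb) were the highest and did not differ beyond their spread. Each lay above 97.2% of the 12338 tested genes with a known length. CDKN2C came to 176 ± 14.5 CPM per kb with the canonical transcript length of 995 nt, but to 84.5 or 60.4 CPM per kb with the other annotated lengths of 2076 and 2904 nt, so its place between MYC and MAX is uncertain. MAX (57.8 ± 3.61 CPM per kb) and CDK6 (52.9 ± 8.29 CPM per kb) did not differ beyond their spread either. CCND2 (22.4 ± 4.87 CPM per kb) and CCND3 (17.8 ± 2.34 CPM per kb) were neighbours whose ranges overlapped, and MXD1 followed with 5.68 ± 1.24 CPM per kb. CCND1 (0.0909 ± 0.0779 CPM per kb) and MYCN (0.0888 ± 0.0775 CPM per kb) were at the bottom, above 1.54% and 1.42% of the genes.

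**Figure D1:**
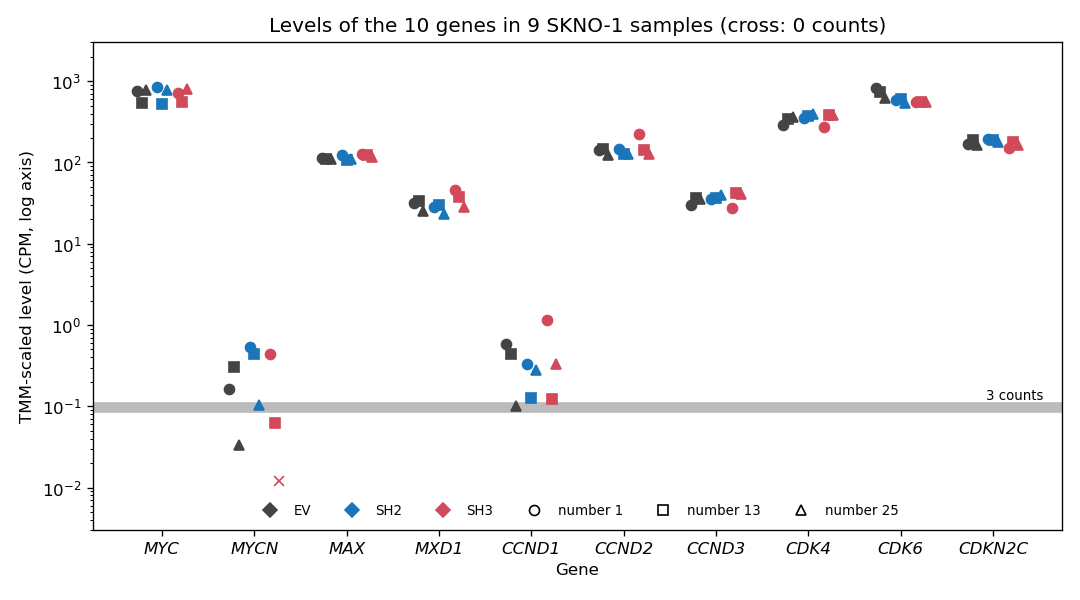
TMM-scaled levels in CPM (log axis) of the 10 genes in each of the 9 samples, coloured by group with the number as the symbol. The grey band marks what 3 counts are worth without TMM factors (0.0847 to 0.108 CPM), and the cross marks the sample with 0 MYCN counts. MYCN and CCND1 lie near the band, and the other 8 genes lie between 22.9 and 842 CPM.

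The first question was what the hairpins against ASXL2 did to these RNAs. ASXL2 itself measured 67.9, 67.9 and 74.7 CPM in EV nos. 1, 13 and 25, against 30.4, 36.2 and 36.2 CPM in SH2 and 26.9, 29.1 and 41.1 CPM in SH3. All 6 knockdown samples lay below all 3 controls. The log2 fold change for both hairpins was -1.08 (SE 0.13), with an adjusted p of 0.177 in the edgeR fit without a block and 0.00098 with the sample number as a block.

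In edgeR with all 9 samples no member passed an adjusted p of 0.05 in any hairpin comparison, and without the block neither did any of the 14199 genes tested (0% called). Before adjustment, p lay under 0.05 for 762 genes in SH2, 723 in SH3, 942 for both hairpins and 293 in SH3 against SH2, and DESeq2 called 25, 26, 56 and 11 genes. The blocked edgeR fit called 40 genes for SH2 (0.282%), 59 for SH3 (0.416%), 156 for both hairpins (1.1%) and 15 for SH3 against SH2 (0.106%), again without a member among them. The comparisons share samples: SH2 and SH3 were read against the same 3 EV samples. Where same-numbered pairs are counted below, the share of all genes with the same outcome was not counted. The median log2 fold change of the 10 genes for both hairpins was 0.08, against 0.01 over all genes tested. In bulk RNA, fewer cells with a transcript and less transcript per cell cannot be told apart.

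MYC (NM_002467, chromosome 8, 128747680 to 128755197, plus strand, GRCh37 as for all genes below) measured 750, 545 and 772 CPM in EV nos. 1, 13 and 25, 842, 528 and 785 CPM in SH2 and 720, 557 and 794 CPM in SH3. The 3 groups overlapped throughout, and within each of them no. 13 was the lowest sample. For both hairpins the log2 fold change was 0.03 (SE 0.18, adjusted p = 0.992) without the block. With the number as a block it was 0.03 (SE 0.07, adjusted p = 0.854). In both fits the value fell on either side of 0 when single samples were left out. Against the EV sample of the same number, SH2 was above in 2 of 3 pairs and so was SH3. MYCN (NM_001293228, chromosome 2, 16080672 to 16087129), the paralogue best known from the nervous system, had 6, 9 and 1 counts in EV, 16, 14 and 3 in SH2 and 13, 2 and 0 in SH3. At this depth a difference between the groups was not detectable.

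MAX (NM_145113, chromosome 14, 65472892 to 65569413, minus strand) measured 115, 110 and 111 CPM in EV, 124, 109 and 109 CPM in SH2 and 129, 122 and 118 CPM in SH3. All 3 SH3 samples lay above all 3 EV samples, as was true of 4.81% of genes, with a log2 fold change of 0.13 (SE 0.09, adjusted p = 0.971). The blocked fit gave 0.13 (SE 0.06, adjusted p = 0.28). The 9 transcript rows of MAX fell into a set with at least 97.3% of the highest total and a set with 19.7% to 22.5% of it, and the lowest row gave -0.04 for the same comparison. FNTB, on the opposite strand, shares 13.1% of the exonic bases of MAX, and these unstranded libraries cannot tell the strands apart.

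MXD1 (NM_001202513, chromosome 2, 70124820 to 70170077, plus strand) was the member whose hairpins went opposite ways in every same-numbered pair. It measured 31.6, 33.8 and 25.0 CPM in EV, 28.3, 30.2 and 22.9 CPM in SH2 and 45.5, 37.9 and 28.7 CPM in SH3. Pair by pair, SH2 was below the EV sample of the same number in 3 of 3 and SH3 above it in 3 of 3, with SH3 no. 1 the highest sample, although the groups overlapped. The log2 fold change was -0.15 for SH2 (SE 0.19, adjusted p = 0.989) and 0.31 for SH3 (SE 0.19, adjusted p = 0.971). Without SH3 no. 1 the SH3 value was 0.14 (adjusted p = 0.835). Set against each other, SH3 exceeded SH2 by 0.46 (SE 0.19, adjusted p = 0.998), or by 0.45 (SE 0.09, adjusted p = 0.108) with the number as a block. That value reached an adjusted p of 0.0360 without SH3 no. 13 and of 0.0103 in DESeq2, both with the block. The edgeR fit without SH3 no. 13 called 257 of 14345 genes, and DESeq2 called 1.07% of genes. With any other sample left out of the blocked edgeR fit MXD1 did not pass (adjusted p up to 0.591). Without SH3 no. 1 the difference was 0.29 (adjusted p = 1), or 0.32 (adjusted p = 0.0622) with the block.

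Of the D-type cyclins, CCND2 (NM_001759, chromosome 12, 4378937 to 4414519, plus strand) measured 141, 145 and 124 CPM in EV, 148, 127 and 127 CPM in SH2 and 226, 143 and 129 CPM in SH3. A single sample, SH3 no. 1, was high and the other 8 lay between 124 and 148 CPM. The log2 fold change of SH3 against EV, 0.28 (SE 0.19, adjusted p = 0.971), was -0.02 without that sample. With all samples and the number as a block it was 0.24 (SE 0.12, adjusted p = 0.308). CCND3 (NM_001287427, chromosome 6, 41902672 to 42018095, minus strand) measured 30.3, 36.1 and 35.8 CPM in EV, 35.5, 36.5 and 39.3 CPM in SH2 and 27.4, 42.4 and 40.6 CPM in SH3. SH2 lay above EV in 3 of 3 pairs, with a log2 fold change of 0.12 (SE 0.16, adjusted p = 0.989). With the block the value was 0.13 (SE 0.10, adjusted p = 0.511). For CCND3, SH3 no. 1 was the lowest of the 9 samples. CCND1 (NM_053056, chromosome 11, 69455924 to 69469242), the cyclin common in solid tumours, had 21, 13 and 3 counts in EV, 10, 4 and 8 in SH2 and 34, 4 and 9 in SH3, and no difference between the groups was detectable at this depth.

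Of the kinases, CDK6 (NM_001145306, chromosome 7, 92234235 to 92465887, minus strand) showed the only separation from EV that both hairpins shared. It measured 822, 731 and 613 CPM in EV, 587, 605 and 533 CPM in SH2 and 548, 559 and 557 CPM in SH3. All 6 knockdown samples lay below all 3 controls, as was true of 2.61% of all genes tested, and every same-numbered pair was lower, with log2 differences of -0.48, -0.27 and -0.20 for SH2 and of -0.59, -0.39 and -0.14 for SH3 (nos. 1, 13 and 25). The log2 fold change for both hairpins was -0.35 (SE 0.10, 0.782 of the EV level), with an unadjusted p of 0.00623 and an adjusted p of 0.623. Each hairpin alone gave -0.33 (SE 0.12, adjusted p = 0.872) for SH2 and -0.38 (SE 0.12, adjusted p = 0.967) for SH3.

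The CDK6 difference depended on the fit. With the number as a block it was -0.35 (SE 0.08, adjusted p = 0.0631), and without SH3 no. 1 that fit gave -0.32 with an adjusted p of 0.0139. There 1755 of 14291 genes were called. With any other sample left out CDK6 did not pass, with an adjusted p up to 0.379 (without EV no. 1). DESeq2 with the block gave -0.35 with an adjusted p of 0.000874, in a comparison in which it called 4.38% of genes. For each hairpin alone, the blocked fit gave adjusted p-values of 0.120 for SH2 and 0.0931 for SH3 in edgeR, and of 0.0159 (2.63% of genes called) and 0.00287 (3.34% called) in DESeq2. In edgeR without SH3 no. 1 they were 0.0177 for SH2 (1604 of 14291 genes called) and 0.0729 for SH3 (368 called). With any other sample left out neither hairpin passed, with adjusted p up to 0.439 for SH2 and 0.441 for SH3. The transcript used for length is 11663 nt, the longest of the 10, and a blocked fit with the trend over transcript length removed gave -0.16 (SE 0.06, adjusted p = 0.274), in a comparison with 0.105% of genes called. The part that this trend plays in the difference was not tested further.

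CDK4 (NM_000075, chromosome 12, 58141510 to 58149796, minus strand), which has the 3 E-boxes shown above, measured 289, 339 and 366 CPM in EV, 357, 374 and 399 CPM in SH2 and 273, 386 and 389 CPM in SH3. SH2 lay above EV in 3 of 3 pairs and SH3 in 2 of 3, and the groups overlapped. The log2 fold change of SH2 was 0.18 (SE 0.15, adjusted p = 0.980), or 0.19 (SE 0.09, adjusted p = 0.265) with the block. TSPAN31, read from the opposite strand, shares 44.2% of the exonic bases of CDK4 and measured 21.2 to 35.6 CPM, highest in SH3 no. 1, where CDK4 was lowest.

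CDKN2C (NM_001262, chromosome 1, 51426417 to 51440306, plus strand), the inhibitor, measured 171, 192 and 163 CPM in EV, 195, 187 and 179 CPM in SH2 and 152, 176 and 164 CPM in SH3. Neither hairpin separated from EV, but all 3 SH3 samples lay below all 3 SH2 samples, as was true of 2.44% of genes. That difference was -0.19 on the log2 scale (SE 0.10, adjusted p = 0.998). With the number as a block it was also -0.19 (SE 0.07, adjusted p = 0.35).

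**Figure D2:**
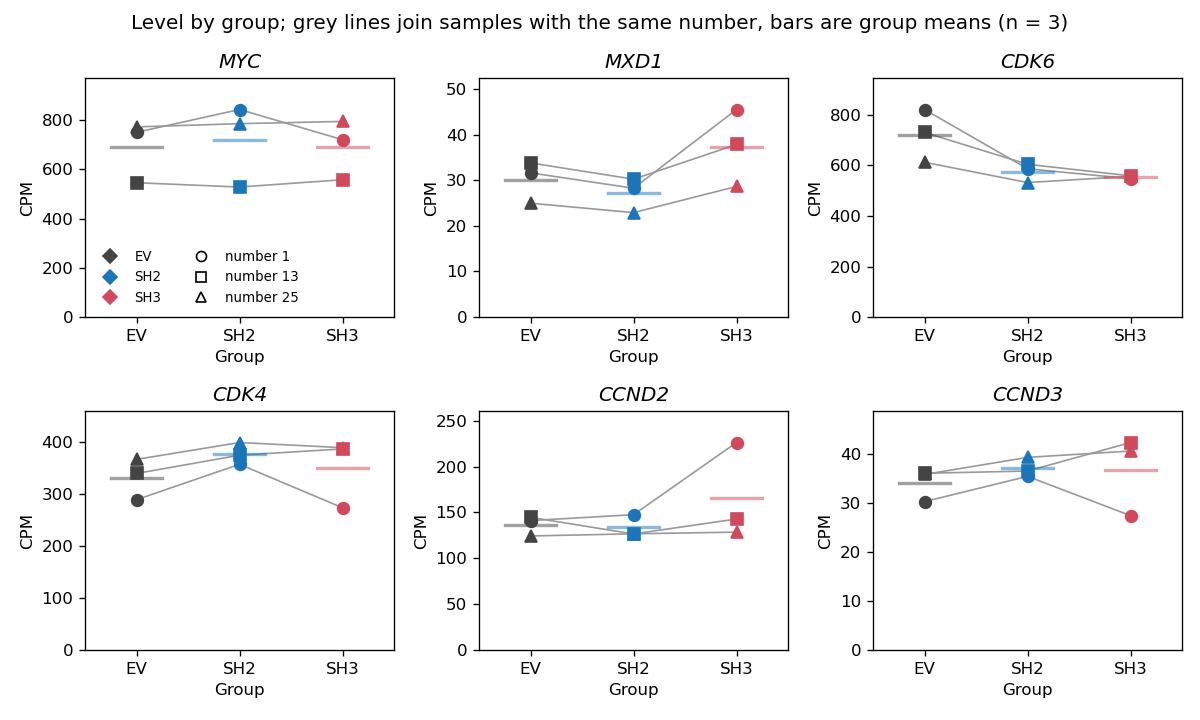
Levels in CPM (axes from 0) of 6 of the genes by group. Grey lines join samples with the same number and bars are group means (n = 3). CDK6 is lower in all 6 knockdown samples, MYC is low in all 3 samples numbered 13, and SH3 no. 1 is the highest for MXD1 and CCND2 and the lowest for CCND3 and CDK4.

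The second question was how the members differed between the numbers, since every number holds a sample of each group. Between no. 1 and the mean of nos. 13 and 25, with the group as a term, edgeR called 7 of the 10 genes. Called genes were common there: 46.3% of all 14199 genes passed, 24.1% higher and 22.2% lower in no. 1. Of the members 5 rose (MYC, MYCN, MXD1, CCND1 and CCND2), 2 fell (CCND3 and CDK4) and 3 did not pass (MAX, CDK6 and CDKN2C). MYCN reached the filter's minimum, scaled to library size, only in SH2 nos. 1 and 13 and SH3 no. 1. CCND1 reached it only in EV nos. 1 and 13 and SH3 no. 1. Both were tested partly because no. 1 samples were high, so their rises there are not independent of the filter. The median over the 10 genes was 0.17 on the log2 scale, against 0.01 over all genes. That median and the 7 calls include MYCN and CCND1, so they are not independent of the filter either. Without SH3 no. 1 MYC still rose and CDK4 still fell, while MYCN, MXD1, CCND1, CCND2 and CCND3 did not pass. That fit called 17.3% of all genes higher and 16.3% lower. Between no. 25 and no. 13 edgeR called 5.87% of genes, 2.77% higher and 3.1% lower, and 2 members, MYC upwards and MXD1 downwards.

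MYC did not follow an order along the numbers. Its mean was 771 ± 63.8 CPM in no. 1, 543 ± 14.8 CPM in no. 13 and 784 ± 11.1 CPM in no. 25 (SD, n = 3). All 3 samples numbered 25 lay above all 3 numbered 13, in a comparison where 15.9% of genes separated upwards. No. 25 exceeded no. 13 by 0.53 on the log2 scale (SE 0.08, 1.44-fold, adjusted p = 0.00682), with 0.49 to 0.57 when single samples were left out. With fewer samples the adjusted p passed 0.05 without EV no. 25 (0.0562), SH2 no. 13 (0.0559), SH2 no. 25 (0.0509) or SH3 no. 25 (0.0547). No. 1 exceeded the mean of the others by 0.24 (SE 0.07, adjusted p = 0.0172), and lost the call without EV no. 25 (0.22, adjusted p = 0.0537), SH2 no. 1 (0.16, adjusted p = 0.0998) or SH2 no. 25 (0.22, adjusted p = 0.0521).

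MXD1 went against MYC between nos. 25 and 13 but not in no. 1. Its mean was 35.1 ± 9.15 CPM in no. 1, 34.0 ± 3.81 CPM in no. 13 and 25.5 ± 2.91 CPM in no. 25. No. 25 was below no. 13 by -0.41 on the log2 scale (SE 0.09, adjusted p = 0.0258) with no overlap, where 15.7% of genes separated downwards. The adjusted p passed 0.05 without EV no. 13 (-0.37, 0.123), EV no. 25 (-0.42, 0.149), SH2 no. 13 (-0.37, 0.148), SH2 no. 25 (-0.45, 0.113) or SH3 no. 25 (-0.34, 0.169). The rise in no. 1, 0.24 (SE 0.08, adjusted p = 0.0281), came to 0.11 without SH3 no. 1 (adjusted p = 0.205). It lost the call also without EV no. 25 (0.23, adjusted p = 0.0714), SH2 no. 13 (0.24, 0.0526), SH3 no. 13 (0.20, 0.0617) or SH3 no. 25 (0.19, 0.0995), and the ranges of the numbers overlapped. Per kilobase, MYC RNA was 34.5 ± 10.5 times the MXD1 RNA in no. 1, 24.0 ± 2.04 times in no. 13 and 46.2 ± 4.88 times in no. 25.

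MAX differed by 0.11 (SE 0.05, adjusted p = 0.112) between no. 1 and the others, and its lowest row gave -0.02. MYCN rose by 1.73 (SE 0.57, adjusted p = 0.0291) on 6, 16 and 13 counts in the no. 1 samples, and lost the call without EV no. 25, SH2 no. 1, SH2 no. 13, SH3 no. 1 or SH3 no. 25, when the adjusted p lay between 0.0611 and 0.0966 and the change between 1.09 and 2.01.

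The D-type cyclins parted in no. 1. CCND2 was higher there by 0.35 (SE 0.10, adjusted p = 0.0187), with 172 ± 47.4 CPM in no. 1 against 138 ± 9.99 in no. 13 and 127 ± 2.11 in no. 25. Without SH3 no. 1 the rise was 0.14 with an adjusted p of 0.0993, and the call was lost also without SH2 no. 13 (0.34, 0.0517) or SH3 no. 25 (0.28, 0.0715). CCND3 was lower by -0.31 (SE 0.09, adjusted p = 0.0159), with 31.1 ± 4.06 CPM in no. 1 against 38.3 ± 3.50 and 38.6 ± 2.47 CPM. It was the member whose no. 1 samples all lay below the other 6, as was true of 12.1% of genes. Without SH3 no. 1 its change was -0.17 (adjusted p = 0.0624). CCND1 rose by 1.51 (SE 0.46, adjusted p = 0.0207) on 21, 10 and 34 counts in the no. 1 samples of EV, SH2 and SH3. Without SH3 no. 1 the rise was 0.95 (adjusted p = 0.163), and the call was lost also without EV no. 25, SH2 no. 13 or SH3 no. 25 (adjusted p from 0.0511 to 0.0584, changes from 1.25 to 1.53).

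CDK4 was lower in no. 1 by -0.30 (SE 0.08, adjusted p = 0.00919), with 306 ± 44.4 CPM in no. 1, 367 ± 24.5 in no. 13 and 385 ± 16.6 in no. 25. It was the member whose call stood whichever of the 9 samples was left out, with changes of -0.40 to -0.20 and adjusted p up to 0.0297. The ranges overlapped, since SH2 no. 1 (357 CPM) lay above EV no. 13 (339 CPM). CDK6 differed by 0.11 (SE 0.08, adjusted p = 0.275) between no. 1 and the others and by -0.15 (SE 0.09, adjusted p = 0.362) between nos. 25 and 13. CDKN2C differed by -0.04 (SE 0.06, adjusted p = 0.625) in no. 1. Between nos. 25 and 13, CDK4 (0.07) and CCND2 (-0.12) did not pass either.

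**Figure D3:**
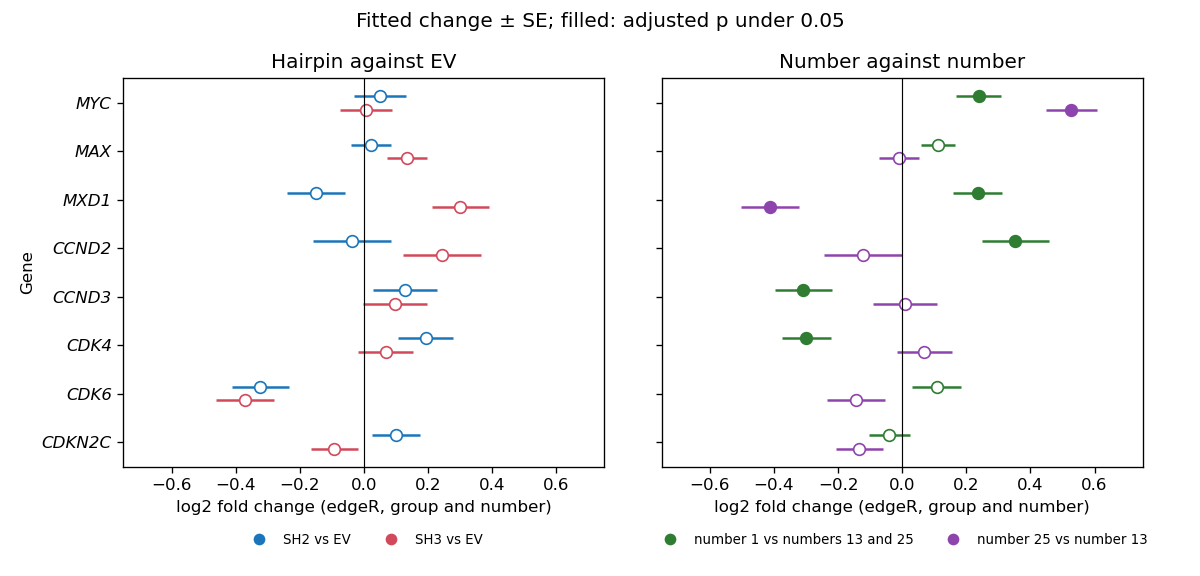
Log2 fold changes ± SE of the 8 genes above the limit of detection, from edgeR fits with group and number as terms, for each hairpin against EV (left) and between numbers (right). Filled points have an adjusted p under 0.05: none on the left, 5 for no. 1 (MYC, MXD1, CCND2, CCND3 and CDK4) and 2 for no. 25 against no. 13 (MYC and MXD1).

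The make-up of the D-type cyclin RNA followed from these values. Per kilobase, CCND2 made up 59.0%, 55.4% and 52.0% of the 3 cyclins in EV nos. 1, 13 and 25, 56.4%, 51.9% and 50% in SH2 and 71.6%, 51.2% and 49.6% in SH3. In each group the share was highest in no. 1 and lowest in no. 25. CCND3 made up nearly all of the rest, since CCND1 never passed 0.561%. The summed level of the 3 cyclins was 38.0 ± 1.93 CPM per kb in EV, 39.0 ± 1.38 in SH2 and 43.8 ± 4.43 in SH3. CDK4 RNA was 2.20, 2.90 and 3.74 times CDK6 RNA per kilobase in EV, 3.80, 3.87 and 4.68 times in SH2 and 3.12, 4.32 and 4.37 times in SH3. Each knockdown sample thus had a higher ratio than the EV sample of its number, and the groups overlapped. For both hairpins the blocked log2 fold changes were -0.35 for CDK6 and 0.13 for CDK4. With the trend over transcript length removed they were -0.16 and 0.07. The part of that trend in the ratio was not tested.

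**Figure D4:**
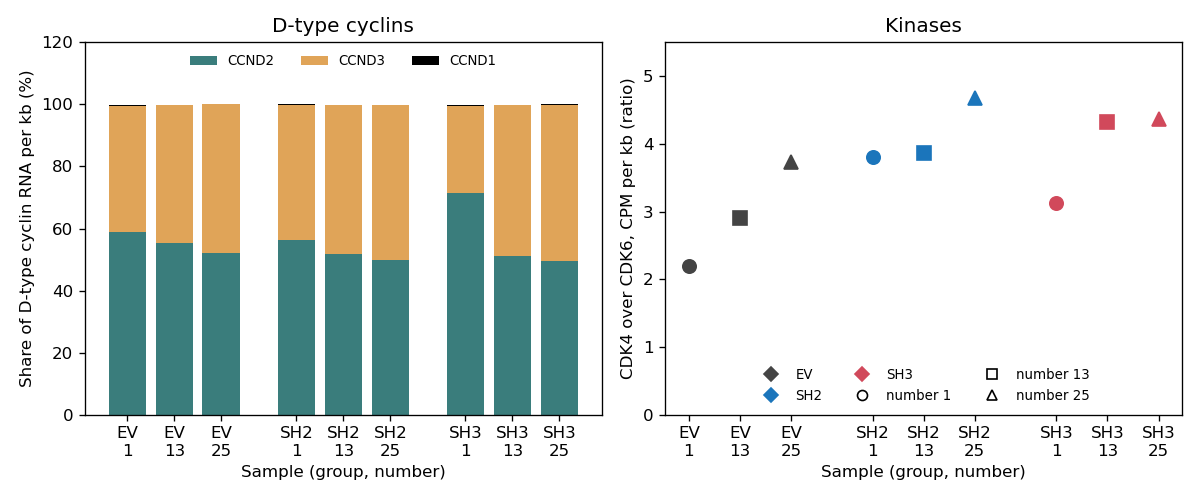
Left, the share of each D-type cyclin in the summed cyclin RNA per kilobase (%), by sample. Right, the ratio of CDK4 to CDK6 RNA per kilobase, by sample. CCND2 reaches 71.6% in SH3 no. 1 and 49.6% to 59.0% elsewhere, and the ratio runs from 2.20 in EV no. 1 to 4.68 in SH2 no. 25.

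The genes around these members were read from 6 lists: other partners in the MYC network, genes of MYC turnover, MYC target genes, other G1 kinases and inhibitors, RB and E2F factors, and E2F target genes. No gene of any list passed for either hairpin, for both or for SH3 against SH2, with or without the block. For both hairpins the 32 MYC target genes had a median log2 fold change of 0.06 and the 22 E2F target genes of 0.03, against 0.01 over all genes.

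In no. 1 MYC was higher than the mean of the other numbers but not than no. 25. It averaged 771 CPM there, against 543 CPM in no. 13 and 784 CPM in no. 25. Between no. 1 and the mean of the others, 25 of the 32 MYC target genes fell and 1 rose. Their median was -0.32 on the log2 scale against 0.01 over all genes, beside a background of 22.2% lower and 24.1% higher. ODC1, the first enzyme of polyamine synthesis, fell by 1.06 (SE 0.14, adjusted p = 0.000514), from 484 to 735 CPM in nos. 13 and 25 to 210 to 390 CPM in no. 1. The ribosome biogenesis factor RRP12 (-0.77) and the spermidine synthase SRM (-0.69) fell with it. LDHA, lactate dehydrogenase, was the member of the list that rose, by 0.76 (SE 0.09, adjusted p = 0.000299). Without SH3 no. 1 there were 22 that fell and 1 that rose, with a median of -0.23, in a fit that called 16.3% of all genes lower and 17.3% higher.

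Between nos. 25 and 13, where MYC differed most, the target list stood higher, with a median of 0.16 against 0.00 over all genes. Its single call was the telomerase subunit TERT (0.56, adjusted p = 0.0178), named here after its value was seen, and 27 of 32 genes were above 0. Over all genes 2.77% were called higher. No gene of the list passed without EV no. 13, EV no. 25, SH2 no. 13, SH2 no. 25 or SH3 no. 25, in fits that called 50 to 252 genes in all, with list medians of 0.12 to 0.20. Without SH3 no. 13 there were 7 calls, and without SH3 no. 1 there were 16, all higher, in a fit that called 9.87% of all genes higher and 9.37% lower.

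E2F target genes fell in no. 1 alongside CDK4 and CCND3: 16 of 22 fell and 1 rose, with a median of -0.29, beside 22.2% lower and 24.1% higher over all genes. The replication factor CDC45 fell by 0.55 on the log2 scale, UHRF1 by 0.53 and GINS2 by 0.47, while the licensing factor CDT1 rose by 0.68 (adjusted p = 0.000714). Without SH3 no. 1 there were 15 that fell and 2 that rose, with a median of -0.21, beside 16.3% and 17.3% of all genes. Between nos. 25 and 13 none of the 22 passed at an adjusted p of 0.05 (median 0.03). There were 2 that rose without SH3 no. 13 and 4 without SH3 no. 1, the latter beside 9.87% of all genes called higher.

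Of the 15 RB and E2F factors, 9 fell and 3 rose in no. 1, with a median of -0.22, where 22.2% of all genes fell and 24.1% rose. E2F6 (-0.61), E2F7 (-0.49) and E2F4 (-0.49) fell, and E2F5, at 1.02 to 2.08 CPM, rose (0.53, adjusted p = 0.0298). Without SH3 no. 1 there were 7 that fell and 3 that rose, where 16.3% and 17.3% of all genes did. E2F8 fell in no. 25 against no. 13 (-0.45, adjusted p = 0.0247), named after its value was seen, and it was the only call of this list there, beside 3.1% of all genes called lower. No gene of the list passed without EV no. 13, EV no. 25, SH2 no. 13, SH2 no. 25, SH3 no. 13 or SH3 no. 25, and 5 fell without SH3 no. 1, beside 9.37% of all genes called lower.

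Of the 15 other G1 genes, 2 rose and 4 fell in no. 1, with a median of -0.09. Over all genes 24.1% rose and 22.2% fell. Both that rose encode inhibitors of cyclin-dependent kinases: CDKN1C (p57) by 1.54 (SE 0.27, adjusted p = 0.00173), with 17.0 CPM in SH3 no. 1 and 2.15 to 7.67 CPM elsewhere, and CDKN1B (p27) by 0.42 (adjusted p = 0.00117). Without SH3 no. 1 there were again 2 that rose and 4 that fell, beside 17.3% and 16.3% of all genes. CDKN1C then rose by 0.93 (adjusted p = 0.000246), while the inhibitor gene CDKN1A fell by 0.63 (adjusted p = 0.000179). The inhibitor genes CDKN2A, CDKN2B and CDKN2D did not pass in that fit. The phosphatase CDC25A (-0.60) and cyclin E1, CCNE1 (-0.48), fell.

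Of the 10 MYC partners tested, 1 rose and 2 fell in no. 1, beside 24.1% and 22.2% of all genes. MXI1 rose in no. 1 by 0.50 (SE 0.11, adjusted p = 0.00449), with 111 CPM in SH3 no. 1 and 52.9 to 71.4 CPM elsewhere, and by 0.28 (adjusted p = 0.00463) without that sample. MXD3 (-0.46) and MYCBP (-0.41) fell, and the other 7 did not pass. Without SH3 no. 1 there were 2 that rose and 2 that fell, beside 17.3% and 16.3% of all genes. MYCL and MLXIPL did not pass the filter on low counts.

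Among 10 genes of MYC turnover, 2 rose and 5 fell in no. 1, with 24.1% and 22.2% over all genes. USP28, a deubiquitinase that stabilises MYC protein, rose by 0.81 (SE 0.07, adjusted p = 8.74e-05), and the kinase gene PIM1 by 0.31 (adjusted p = 0.00911), or by 0.19 (adjusted p = 0.0308) without SH3 no. 1. HUWE1, a ubiquitin ligase, fell by 0.28 (adjusted p = 0.0427), a call lost without SH3 no. 1 (-0.25, adjusted p = 0.0938), and KIAA1524, which encodes the PP2A inhibitor CIP2A, fell by 0.28. With that sample left out 3 genes fell and 2 rose, where 16.3% and 17.3% of all genes did. PIM1 measured 460, 320 and 572 CPM in EV, 531, 328 and 586 CPM in SH2 and 685, 354 and 640 CPM in SH3. Like MYC it was lowest in no. 13 in every group, and it rose by 0.84 (SE 0.09, adjusted p = 0.00222) between nos. 13 and 25, where KIAA1524 rose by 0.31 (adjusted p = 0.0406). These 2 were the calls of the list there, beside 2.77% of all genes called higher. A single call was left without EV no. 13, EV no. 25, SH2 no. 1, SH2 no. 13, SH2 no. 25 or SH3 no. 25, while there were 3 without EV no. 1 and 6, all higher, without SH3 no. 1, the last beside 9.87% of all genes. The level of MYC protein was not measured here.

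**Figure D5:**
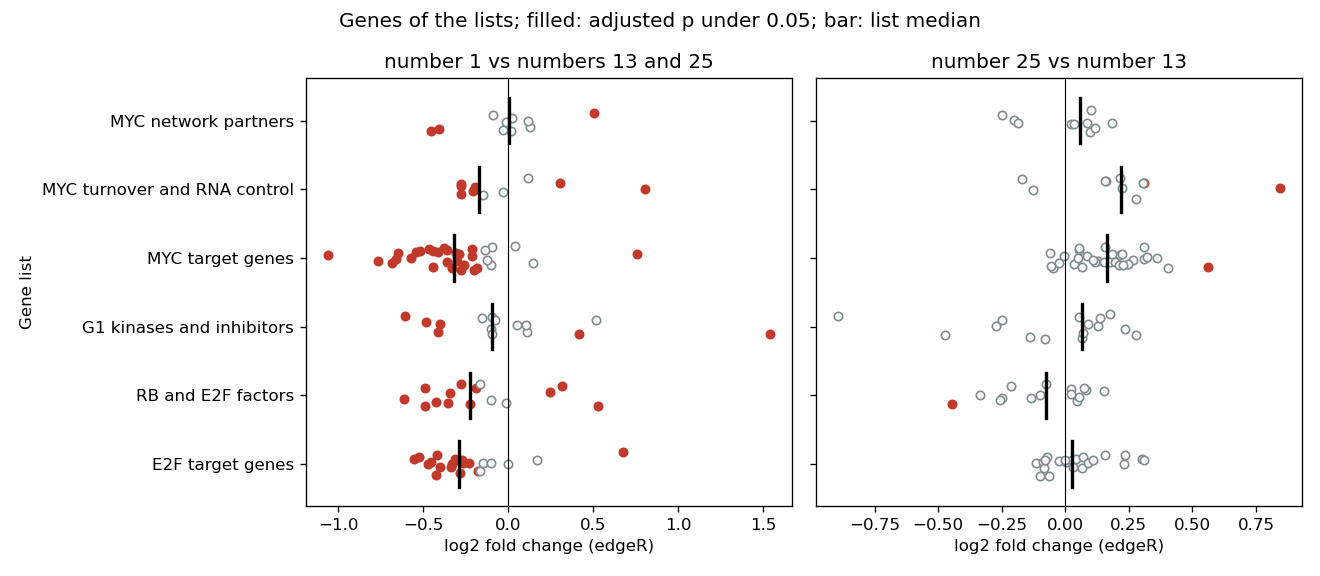
Log2 fold changes of the genes of the 6 lists between numbers. Each point is a gene, filled where the adjusted p is under 0.05, and the bar is the list median. In no. 1 (left) the medians of the MYC target genes (-0.32) and E2F target genes (-0.29) lie below 0, and between nos. 25 and 13 (right) the MYC target median is 0.16.

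Among genes with a mean of at least 1 CPM, the patterns most like those of 4 members over the 9 samples were found by Pearson's r of log2 CPM. FAM185A (0.943), MEF2BNB-MEF2B (0.940) and C2orf44 (0.937) were most like MYC, and COX19 (0.979), YPEL4 (0.969) and GPR132 (0.965) most like MXD1. For CCND2 they were GBP2 (0.981), UBE2W (0.966) and IFNGR2 (0.965), and for CDK4 they were NDUFB2 (0.998), TIMM23 (0.996) and NHP2 (0.992). Among the members themselves CCND3 and CDK4 were the most alike (0.953), and CCND2 and CDK4 the most opposite (-0.770). The 9 points share 3 numbers and 3 groups, and SH3 no. 1 is far from the others, so these values describe the samples at hand.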

How the data were processed

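Messenger RNA of 9 SKNO-1 samples (EV, SH2, SH3, 3 each) had been sequenced from unstranded poly(A) libraries. The authors deposited raw counts of reads for each RefSeq transcript, with 48104 rows a sample, on hg19, and the submitters' processing notes name STAR, featureCounts and DESeq2. Isoforms counted shared reads repeatedly, so each symbol took its row with the highest total, and 9509 symbols had several rows.

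Counts were fitted with edgeR 4.0.16 in R 4.3.3 (quasi-likelihood F test, TMM, filterByExpr with a minimum count of 10 and a total of 15, Benjamini-Hochberg over 14199 genes, threshold 0.05). Hairpins were compared in a fit with the group alone, and with the number as a block as an alternative. Numbers were compared in a fit with group and number. SEs are the log2 fold change over the root of F. Labels do not say what the numbers mean, but same-numbered samples deviated together from their group means (r from 0.398 to 0.731 over 9 pairs, at most 0.306 for other pairs), so they were taken to pair the samples. Within groups the chi-square per degree of freedom was 17.6 to 128, so no sample was a copy of another. The edgeR fits with and without the block, and DESeq2 for the hairpins, were first tested on simulated counts with known changes. There the false share among the calls of the blocked hairpin fits exceeded the threshold of 0.05 in both tools.

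Alternatives were DESeq2 1.42.0, relative log expression size factors, no filter, the lowest-total row, leaving out each sample, a transcript-length offset, and no group term. Leaving out samples in the blocked fit was added after the data were seen. Transcript lengths and coordinates came from GENCODE v44lift37 (GRCh37) and promoters from RefSeq (GRCh38.p14). Members and lists were chosen with earlier results of these data known. Named genes were the 10 members, ASXL2, and from each list up to 4 genes past the threshold in the blocked fit of both hairpins or between numbers, by size of change (the 2 with the smallest p where none passed), and for 4 members the 3 genes of most similar log2(CPM + 0.1). The list gene CIP2A was found as KIAA1524. The erythroid marker list is not reported here.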

Additional observations from a re-analysis of the deposited data

Results flagged for a closer look

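MXD1 was flagged because SH2 and SH3 lay on opposite sides of the EV sample in every same-numbered pair. The share of all genes with such pairs was not counted. With the number as a block its log2 fold change was -0.15 for SH2 against EV (adjusted p = 0.393, lower in 3 of 3 pairs) and 0.30 for SH3 against EV (adjusted p = 0.129, higher in 3 of 3 pairs). The difference between the hairpins was tested with edgeR: it was 0.45, with an adjusted p of 0.108 in the blocked fit and of 0.998 without the block, so it did not pass. Pairs that go opposite ways by number describe these 9 samples, and the pair with the largest difference was SH3 no. 1 against EV no. 1 (0.53 on the log2 scale). Without SH3 no. 1 the blocked value of SH3 against EV was 0.17 (adjusted p = 0.199).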

How the results depend on the processing

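In the hairpin comparisons the counts of called genes depended on the fit more than on any member. For SH2, SH3, both hairpins and SH3 against SH2, edgeR without a block called 0 genes, also with relative log expression factors, with no filter and with the lowest row. DESeq2 called 25, 26, 56 and 11. With the replicate block edgeR called 40, 59, 156 and 15, DESeq2 374, 474, 622 and 152, and the block with the transcript length offset 6, 21, 13 and 7. Without the samples numbered 1 the block called 267, 341, 370 and 129. With single samples left out, counts ran from 0 to 0, 0 to 1, 0 to 2 and 0 to 0 without the block, and from 0 to 1604, 1 to 368, 2 to 1755 and 0 to 257 with it, with the highest but the last reached without SH3 no. 1 and the last without SH3 no. 13 (103 without SH3 no. 1). In edgeR with all 9 samples the block changed no call of the 10 genes, while ASXL2 passed with it. In DESeq2 CDK6 passed with the block for SH2, SH3 and both hairpins (adjusted p = 0.348, 0.258 and 0.0986 without it) and MXD1 for SH3 against SH2 (0.999 without it).

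Between numbers the 6570 calls for no. 1 stayed within 1.5 times under all alternatives (4813 to 6624). The 833 calls for no. 25 against no. 13 became 304 with no group term and 50 (without EV no. 25) to 2750 (without SH3 no. 1) with a sample left out.

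Among the values given above, some directions turned. MYC for both hairpins ran from -0.11 to 0.12 with samples left out, and from -0.01 to 0.06 with the block. MAX with its lowest row gave -0.04 for SH3 and -0.02 for no. 1. CCND2 for SH3 ran from -0.02 (without SH3 no. 1) to 0.43 (without SH3 no. 25). CDKN2C in no. 1 was 0.04 with its lowest row and ran from -0.11 to 0.02 with samples left out, the last without SH3 no. 1. The causes were not tested. DESeq2 gave MYCN in no. 1 an adjusted p of 0.0480 and CCND1 of 0.0572. With no group term MXD1 lost its calls in no. 1 (adjusted p = 0.174) and no. 25 (0.217), and MYCN in no. 1 (0.0595). Low counts limit MYCN (0 to 16 per sample) and CCND1 (3 to 34 per sample, the highest in SH3 no. 1), and the 3 samples per group limit the rest.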
